A study of Mus musculus with 3 samples.

Results

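The 9 genes described here encode amino acid transporters of the plasma membrane that have been linked to glucagon-producing alpha cells. They were chosen by name: Slc7a2, Slc38a5, Slc38a4, Slc38a3, Slc3a2, Slc7a5, Slc7a8, Slc1a4 and Slc1a5. Of these 9, 8 are among the 15743 genes that both deposited tables list, and Slc38a3 was measured in 1 of the tables. The cells came from islets of Langerhans of 6 mice, taken 10 days after tamoxifen. Their genotype was Ngn3-CreERT:R26-CAG-TdTomato. In these mice a tamoxifen-activated Cre recombinase under the Neurog3 driver switches on a red reporter. All 3 samples belong to this 1 group, so every animal carried both transgenes and received tamoxifen, and there is no untreated or Cre-negative group. Replicate 1 is called library 1. Replicates 2 and 3, each a pool of 2 mice, were deposited as 1 joint table whose cells no label ties to a sample, so tests compare cell classes over n = 2 libraries. The class of PP cells, defined below, entered the main fit from the joint table only.

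Alpha cells release glucagon, which drives the liver to use amino acids, and circulating amino acids in turn stimulate alpha cells. Slc7a2 takes up cationic amino acids such as arginine and lysine. Slc38a5 and Slc38a3 are sodium-coupled carriers of glutamine and related amino acids, and Slc38a4 is a sodium-coupled carrier of small neutral amino acids. Slc3a2 is the heavy chain that brings light chains, among them Slc7a5 and Slc7a8 for large neutral amino acids, to the cell surface. Slc1a4 and Slc1a5 exchange small neutral amino acids, Slc1a5 also glutamine.

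On the mm10 build (GENCODE M21), all 9 are protein-coding. Slc7a2 (ENSMUSG00000031596.15) lies at chr8:40862396-40922308 on the plus strand, and Slc7a5 at chr8:121881150-121907694 on the minus strand. Slc38a5 (ENSMUSG00000031170.14) lies at chrX:8271133-8280179, plus strand, and Slc1a5 at chr7:16781340-16798274, plus strand. On the minus strand lie Slc38a4 at chr15:96994820-97055956, Slc38a3 at chr9:107650634-107669530, Slc3a2 at chr19:8706882-8723369, Slc7a8 at chr14:54722209-54781946 and Slc1a4 at chr11:20302180-20332713. Exons of Slc7a2 overlap those of Gm26584 on the opposite strand, and whether counting used strand is not given in the sources used here, so reads of these 2 genes may not be separable. No other member had an exon shared with another gene.

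RefSeq start sites (GRCm38.p6) gave 7 windows of 250 bases before the start for 5 members. The upstream sequences of 3 members that stood higher in alpha than in delta cells are shown, each as the stretch free of annotated exons, 5′ to 3′ on the strand of the gene. They are chrX:8271261-8271380 for Slc38a5, chr14:54781947-54782136 for Slc7a8 and chr15:97055957-97056206 for the outermost start of Slc38a4. The Slc38a5 stretch lies inside the gene span given above, since the RefSeq start used is internal to it. Of the 250 bases of that window, 128 lie in annotated exons.
Slc38a5: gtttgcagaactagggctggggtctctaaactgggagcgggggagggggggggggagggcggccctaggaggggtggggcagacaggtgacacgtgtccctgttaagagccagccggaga
Slc7a8: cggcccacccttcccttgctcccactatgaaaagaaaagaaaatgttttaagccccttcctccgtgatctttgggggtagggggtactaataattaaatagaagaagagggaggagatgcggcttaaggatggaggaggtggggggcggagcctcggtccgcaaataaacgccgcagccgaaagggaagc
Slc38a4: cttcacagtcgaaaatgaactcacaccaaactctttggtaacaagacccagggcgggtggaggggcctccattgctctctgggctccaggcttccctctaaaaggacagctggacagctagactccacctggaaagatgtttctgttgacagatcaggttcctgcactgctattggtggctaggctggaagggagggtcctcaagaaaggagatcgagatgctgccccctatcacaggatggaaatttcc
The amino acid response element core (TGATGNAA, either strand) was found in 0 of the 7 windows, and in 3.45% of 32851 promoters of the same length. No letters are therefore capitalised, and this says only that these letters are not in these windows.

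Cells were assigned by hormone UMIs per 10000 UMIs of the cell: alpha by Gcg of at least 200, delta by Sst of at least 200, PP by Ppy of at least 200 and beta by Ins1 plus Ins2 of at least 3000, with exactly 1 gate passed. Cells kept numbered 859 (library 1) and 11449 (joint table), the order used for pairs of values below. Of these 104 and 873 were alpha, 464 and 6844 beta, 25 and 227 delta and 17 and 235 PP cells. The 17 PP cells of library 1 were fewer than the 20 needed for the main fit. Differences and p-values against PP below therefore rest on PP cells of the joint table. Non-endocrine cells, named by at least 3 markers of 1 list, numbered 123 and 1484. Their mixture differed between the tables. Fibroblasts and pericytes gave 957323 of their 1567760 UMIs in library 1 and 622451 of 5521855 in the joint table. Endothelial cells gave 289814 and 2875688. Differences against this pooled class therefore compare alpha cells with unlike mixtures. Median depth was 14305 and 7618 UMIs in alpha cells, 39155.5 and 19956.5 in beta cells and 8375 and 2907 in non-endocrine cells. Cells that passed more than 1 gate (100 and 1213) were kept apart. Library 1 shared 5, 1 and 0 cell barcodes with the 3 barcode blocks of the joint table, and the blocks shared 6, 4 and 4 with each other. The alpha markers not used by the gate that are given here were higher in alpha than in beta cells in library 1 and in the joint table. Ttr stood at 232 and 316 per 10000 in alpha cells against 5.13 and 5.06 in beta cells. Irx1 stood at 1.12 and 0.978 against 0.00101 and 0.00141, Irx2 at 1.29 and 1.38 against 0.00854 and 0.00543, and Gc at 1.76 and 1.64 against 0.126 and 0.19. Cells named by acinar markers, 124 in the joint table, carried the endocrine gene Chga at 32.5 per 10000, which goes against that name.

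Hormone transcripts took 36.7% and 36% of alpha UMIs but 68.3% and 69.5% of beta UMIs, which lowers every other gene of a beta cell on the per-10000 scale. Levels are therefore also given per 10000 UMIs outside 7 hormone genes, and the test was made on values centred on each column's median. That median log2 level was -1.88 and -1.82 in alpha, -2.48 and -2.52 in beta, -1.50 and -1.54 in delta and -2.21 in PP cells of the joint table. Brackets below are exact 95% Poisson or Clopper-Pearson intervals and cover counting error only.

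Slc7a2 was higher in alpha cells than in beta, delta, PP and non-endocrine cells in both tables. Alpha cells of library 1 held 3.63 per 10000 UMIs (3.33 to 3.96) and those of the joint table had 3.87 (3.72 to 4.02), with 3.59, 3.86 and 4.37 in the 3 barcode blocks. Beta cells had 0.617 and 0.623, delta cells 0.404 and 0.539, and PP cells 0.48 and 0.443. The intervals of alpha cells overlapped none of these. In library 1, 19 cells with no hormone gate passed and no other class assigned held 4.94 (3.02 to 7.62, 20 UMIs, median depth 1628 UMIs), which overlaps the alpha interval; 139 such cells of the joint table held 0.765. Macrophages stood at 0.775 and 0.702, and endothelial cells were low, with 0.111 in the joint table and 0 UMIs in library 1, which allows up to 0.104 per 10000. Per 10000 UMIs outside hormone genes the alpha level was 5.74 and 6.04 and the beta level 1.94 and 2.04. In the limma fit, Slc7a2 exceeded the beta level by 1.85 on the log2 scale in alpha cells (SE 0.13, Benjamini-Hochberg adjusted p = 2.70e-05), the delta level by 3.21 (SE 0.13, adjusted p = 2.60e-06), the PP level by 2.67 (SE 0.17, adjusted p = 1.26e-04) and the non-endocrine level by 3.68 (SE 0.16, adjusted p = 2.00e-05).

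**Figure D1:**
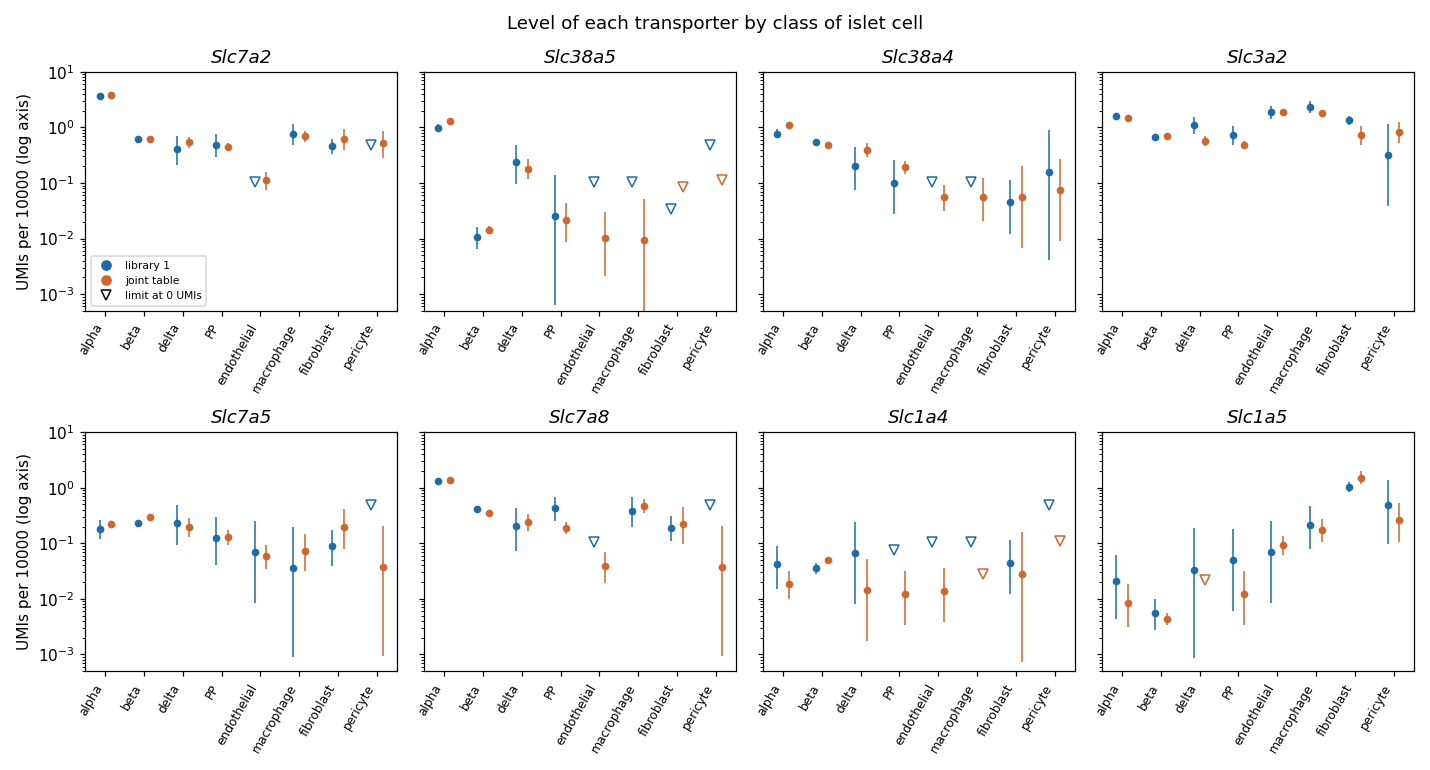
Level of 8 transporters (UMIs per 10000, log axis) in 8 classes of islet cells of library 1 (blue) and the joint table (orange). Points are summed UMIs with exact 95% Poisson intervals and open triangles the limit that 3 counts would give where 0 were seen; Slc7a2 reaches 3.63 and 3.87 in alpha cells, and Slc1a5 reaches 1.05 and 1.52 in fibroblasts.

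Slc38a5 had the largest difference between alpha and beta cells of the members tested. Alpha cells of library 1 held 0.983 per 10000 (0.828 to 1.16) and those of the joint table had 1.33 (1.24 to 1.42), with 1.29, 1.42 and 1.33 in the blocks. Beta cells held 0.0106 and 0.0144, PP cells 0.0253 and 0.0212, and delta cells 0.235 and 0.18. Among these classes delta cells thus came second in both tables, but in library 1 this order is not resolved. There, 7 UMIs in 25 delta cells (0.0946 to 0.485) overlapped 1 UMI in 17 PP cells (0.00064 to 0.141). In the joint table the intervals of delta (0.116 to 0.265) and PP cells (0.00854 to 0.0438) did not overlap. In library 1, 1 alpha cell carried 20 of the 142 Slc38a5 UMIs (14.1%). The difference was 3.60 log2 units against beta (SE 0.22, limma adjusted p = 1.35e-05), 2.55 against delta (SE 0.22, adjusted p = 1.18e-04), 3.74 against PP (SE 0.28, adjusted p = 4.66e-04) and 4.92 against non-endocrine cells (SE 0.24, adjusted p = 2.88e-05). Non-endocrine cells held 0 and 8 UMIs, and the beta and PP levels also lie under the pseudocount of 0.05, so these 3 differences depend on it. With pseudocounts of 0.2 and 0.01 the difference against beta was 2.27 and 4.89, and that against PP 2.41 and 4.83.

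Slc38a4 was higher in alpha than in delta and PP cells and did not pass the threshold against beta cells. Its level was 0.775 and 1.1 per 10000 in alpha, 0.54 and 0.491 in beta, 0.202 and 0.395 in delta and 0.101 and 0.191 in PP cells. Outside hormone genes, alpha cells held 1.22 and 1.72 and beta cells 1.7 and 1.61, so the order of these classes changed between the tables. The centred difference between alpha and beta was 0.14 (SE 0.21, limma adjusted p = 0.715), and its sign differed between library 1 (-0.12) and the joint table (0.39). With the total outside hormone genes it was -0.02, and without centring it was called at 0.79 (adjusted p = 0.0110). Slc38a4 was higher in alpha than in delta cells by 1.87 (SE 0.21, adjusted p = 4.63e-04), than in PP cells by 1.86 (SE 0.27, adjusted p = 0.0109) and than in non-endocrine cells by 3.75 (SE 0.24, adjusted p = 5.22e-05). Over 21 alternatives the size of the difference against non-endocrine cells ran from 2.48 to 4.49, called in each. The call against PP was lost without the library block (1.66, adjusted p = 0.119).

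Slc38a3 was measured in the joint table only. It had 8 UMIs in 8 of 11449 cells, 4 of them in beta cells, and 0 in 873 alpha cells, which allows up to 0.00428 per 10000. It was not detectable in alpha cells at this depth and was not tested.

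Among the 2 large neutral amino acid light chains, Slc7a8 was higher and Slc7a5 lower in alpha than in beta cells. Slc7a8 stood at 1.32 and 1.38 per 10000 in alpha, 0.406 and 0.351 in beta, 0.202 and 0.237 in delta and 0.43 and 0.191 in PP cells. The difference of Slc7a8 was 1.06 against beta (SE 0.15, limma adjusted p = 0.00117), 2.71 against delta (SE 0.15, adjusted p = 1.46e-05), 2.19 against PP (SE 0.19, adjusted p = 9.76e-04) and 3.21 against non-endocrine cells (SE 0.16, adjusted p = 2.90e-05). Slc7a5 stood at 0.18 and 0.218 in alpha and 0.232 and 0.294 in beta cells, and outside hormone genes at 0.284 and 0.341 against 0.732 and 0.964. Slc7a5 was lower in alpha than in beta cells by -0.98 (SE 0.20, adjusted p = 0.00805), a call lost without centring (-0.33, adjusted p = 0.177) and with block 2 in place of the joint table (-1.18, adjusted p = 0.0539). Against delta (0.24, SE 0.20, adjusted p = 0.437) and PP cells (0.18, SE 0.25, adjusted p = 0.860) Slc7a5 did not pass the threshold, except against delta with halved gates (0.87, adjusted p = 2.86e-04), where delta cells of library 1 left the fit. It was higher in alpha than in non-endocrine cells by 1.38 (SE 0.21, adjusted p = 0.00167), which was not called with block 2 alone (1.02, adjusted p = 0.0668).

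The heavy chain Slc3a2 was present in all classes. It stood at 1.62 and 1.45 per 10000 in alpha cells, 0.667 and 0.702 in beta cells, 1.86 and 1.9 in endothelial cells and 2.33 and 1.81 in macrophages. Outside hormone genes, alpha cells (2.56 and 2.26) and beta cells (2.1 and 2.3) changed order between the tables. Slc3a2 was higher in alpha than in delta cells by 1.22 (SE 0.20, limma adjusted p = 0.00344). It did not pass against beta (0.45, SE 0.20, adjusted p = 0.152), PP (1.03, SE 0.26, adjusted p = 0.0985) or non-endocrine cells (0.46, SE 0.24, adjusted p = 0.147). The beta comparison was called in 4 of 20 alternatives, among them without centring (1.11, adjusted p = 0.00186) and with halved gates (0.46, adjusted p = 2.76e-04). The PP comparison was called in 8 of 21, among them the one with the 17 PP cells of library 1 added (0.98, adjusted p = 0.0170), and the non-endocrine comparison in 2 of 21.

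Slc1a4 and Slc1a5 were low in alpha cells. Slc1a4 had 6 and 13 UMIs in alpha cells, or 0.0415 and 0.0186 per 10000, against 0.0352 and 0.0499 in beta cells, and was too low to test. Outside hormone genes the levels of Slc1a4 were 0.0656 and 0.029 in alpha and 0.111 and 0.163 in beta cells, so its order in library 1 turned with the total. Slc1a5 had 3 and 6 UMIs in alpha cells (0.0208 and 0.00857 per 10000). It was high in fibroblasts, at 1.05 (0.849 to 1.29) and 1.52 (1.15 to 1.99), and 9 UMIs in 21 cells of the joint table named by Schwann markers gave 2.07 (0.947 to 3.93). Non-endocrine cells as a whole held Slc1a5 at 0.683 and 0.254. It passed the filter on low genes through these columns alone, so the difference is given as levels with no test.

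**Figure D2:**
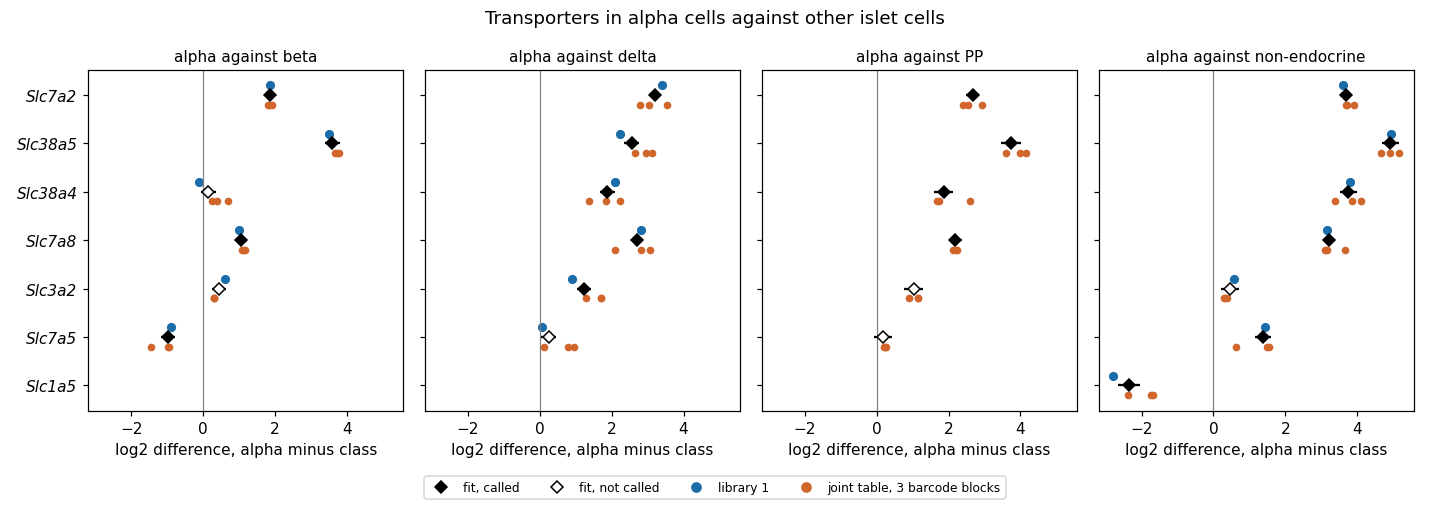
Log2 difference between alpha cells and beta, delta, PP or non-endocrine cells for 7 transporters, on median-centred values. Diamonds are the fit with its SE, filled where called. Blue points are library 1 and orange points the 3 barcode blocks of the joint table. Slc7a2, Slc38a5 and Slc7a8 lie right of 0 in all 4 comparisons, and Slc7a5 lies left of 0 against beta cells. Slc1a5 is drawn as a description only, and its filled diamond is not to be read as a call.

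Of 6 members tested against beta cells, 3 were higher and 1 lower, where 22.4% of all 8305 genes tested were called (11.4% higher, 11% lower). Against delta cells 5 of 6 were higher, with 17.7% of genes called (8.13% higher, 9.55% lower). Against PP cells 4 of 6 were higher, with 2.54% called (1.4% higher, 1.14% lower); this comparison rests on 1 PP column, that of the joint table, which is assumed to vary like the other classes. Against non-endocrine cells 5 of 6 were higher, Slc1a5 left aside, with 50.8% of 10126 genes called (27.5% higher, 23.3% lower). The members' median differences against beta, delta and PP cells were 0.76, 2.21 and 2.02, beside -0.00, 0.02 and -0.02 over all genes tested. The members were chosen with earlier results of these data known. These counts and medians therefore describe the members and are no independent test of them. The 4 comparisons share the alpha columns. Members were tested only if both tables list them and they reached 0.1 per 10000 in at least 2 columns. These counts therefore leave out Slc38a3, which library 1 does not list, and Slc1a4, which did not reach this level. They also leave out Slc1a5, which reached it only through non-endocrine columns. The split of all calls moved with centring: 943 higher and 916 lower against beta became 5028 and 315 without it, 675 and 793 against delta became 335 and 2226, 116 and 95 against PP became 513 and 51, and 2783 and 2358 against non-endocrine cells became 1303 and 3969.

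At equal depth, cells thinned to 1500 UMIs outside hormone genes, Slc7a2 was detected in 60.4% of 101 alpha cells and 54.7% of 825 (unthinned 96.2% and 86.6%). The thinned shares in beta cells were 26.7% and 25.6%, and in non-endocrine cells 4.17% and 4.7%. Slc38a5 was detected in 13.9% and 21.6% of thinned alpha cells (unthinned 48.1% and 45.7%), in 0.217% and 0.64% of beta cells, and in 0 of 120 and 0.0796% of 1256 non-endocrine cells. The glucagon transcript itself, a measure of free RNA, stood at 1.71 and 3.32 per 10000 in beta and 3.69 and 8.96 in endothelial cells, against 3380 and 2880 in alpha cells. All 7 hormone genes together took 0.924% and 9.19% of the UMIs of endothelial cells and 0.847% and 9.85% of those of non-endocrine cells.

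**Figure D3:**
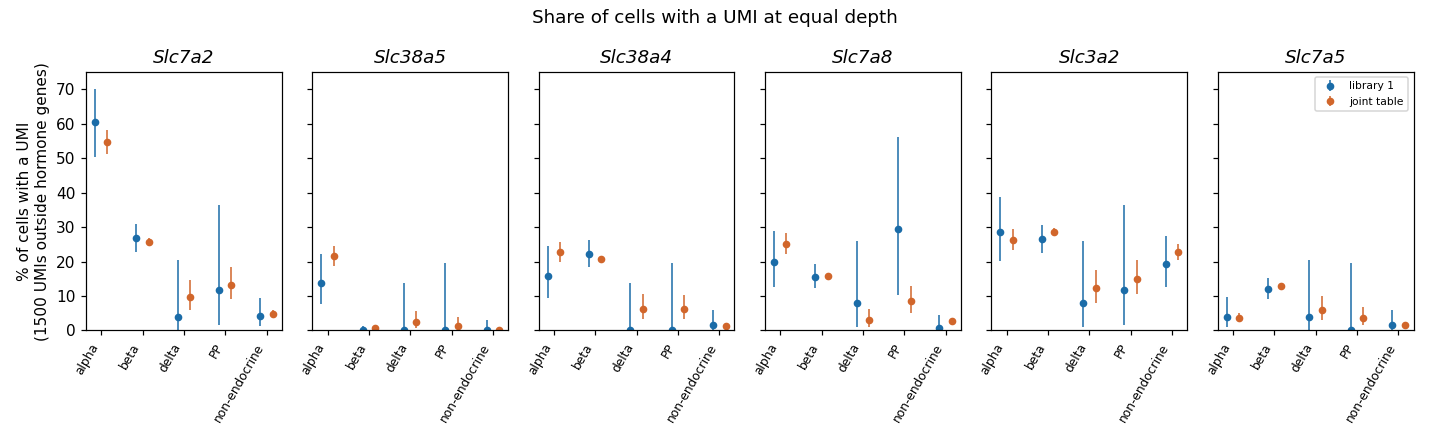
Share of cells (%) with a UMI of 6 transporters after thinning each cell to 1500 UMIs outside hormone genes, by class, for library 1 (blue) and the joint table (orange), with exact 95% Clopper-Pearson intervals. Slc7a2 is in 60.4% and 54.7% of alpha cells and in 26.7% and 25.6% of beta cells.

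Within alpha cells the members differed in how they varied with glucagon, described here without a test. In the joint table Slc7a2 fell over rising glucagon, from 8.48 per 10000 UMIs outside hormone genes in 42 cells with 400 to 1000 glucagon UMIs per 10000 to 5.86 in 369 cells at 2000 to 3000 and 4.37 in 48 cells at 4000 or more. The 14 cells at 200 to 400, just inside the gate, held 14.5 (10.3 to 19.8). Just outside it, in library 1, 4 cells at 50 to 100 held 11.4 (5.87 to 19.8) and 3 cells at 100 to 200 held 6.51 (1.34 to 19). In library 1 the values ran from 8.28 in 12 cells to 3.67 in 19 cells. Between its bins of at least 20 cells, 21 cells at 2000 to 3000 and 35 at 3000 to 4000, the values were 6.2 and 5.57 with overlapping intervals, so the fall in library 1 rests on thinly filled bins. Over the same bins of the joint table insulin fell from 1600 to 405 per 10000 and the median depth rose from 1815.5 to 9156.5 UMIs, and their part in the pattern was not tested. Slc7a8 held 1.41 and 1.82 at the same ends of the joint table (400 to 1000 and 4000 or more), with overlapping intervals. Slc38a5 held 2.83 (1.98 to 3.91) and 2.08 (1.53 to 2.76) at these ends, again with overlapping intervals, and 1.63, 1.87 and 2.42 in the bins between them. In library 1 it was 0.711 at 2000 to 3000 and 2.14 at 3000 to 4000.

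**Figure D4:**
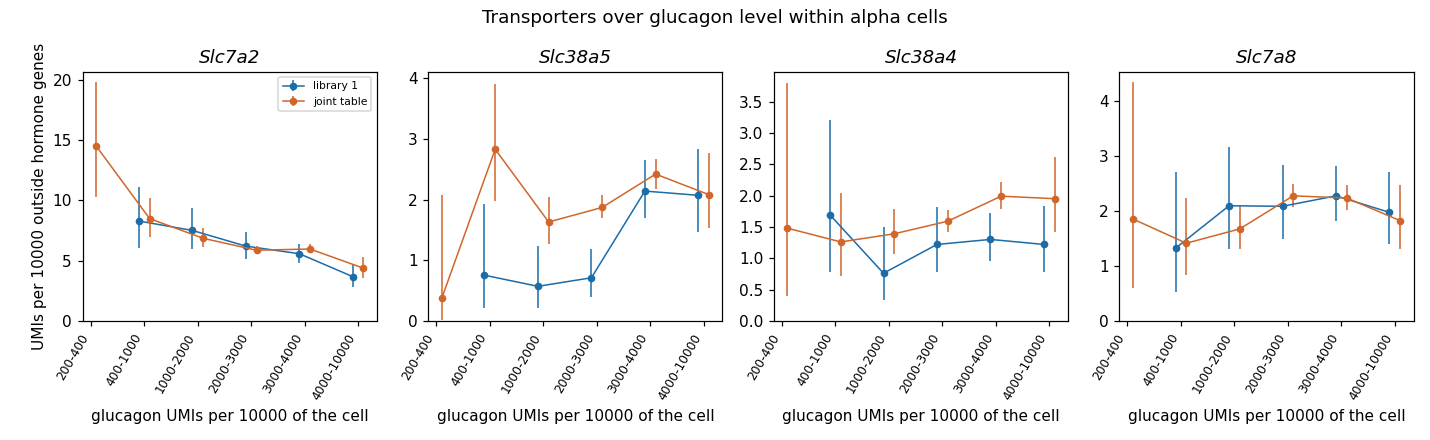
Level of 4 transporters (UMIs per 10000 outside hormone genes) in alpha cells by glucagon UMIs per 10000 of the cell, for library 1 (blue) and the joint table (orange), with exact 95% Poisson intervals. Slc7a2 runs from 14.5 to 4.37 in the joint table, while Slc7a8 shows no such fall.

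Single alpha cells often held several members. At 3000 UMIs outside hormone genes, at least 2 members were detected in 77.8% of 99 and 82.2% of 749 alpha cells, in 59.6% and 62.6% of beta cells, in 12% and 19.1% of delta cells and in 35.3% and 23.8% of PP cells. In the joint table Slc38a5 was found in 35.3% of alpha cells with Slc7a2 and in 36.3% of those without it, and Slc7a8 in 44.6% and 43.6%. In library 1 Slc38a5 was found in 31.5% of 73 alpha cells with Slc7a2 and 34.6% of 26 without it, and Slc7a8 in 45.2% (33.5 to 57.3) and 23.1% (8.97 to 43.6).

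Of 45 other amino acid transporters, 33 were listed in both tables and 12 could be tested among endocrine classes. Against beta cells 2 were higher and 4 lower in alpha cells, where 22.4% of all genes tested were called, with a median of -0.18. Against delta cells 1 was higher and 3 lower, where 17.7% of all genes were called, with a median of -0.13. Against PP cells limma called 0, with 2 under an unadjusted p of 0.05, where 2.54% of all genes tested were called. DESeq2 called 0 and edgeR 2, and edgeR also called more of all genes than limma, with the counts given below. Slc6a17, a vesicular transporter of neutral amino acids, was higher in alpha than in beta (0.71, SE 0.18, limma adjusted p = 0.0222) and delta cells (0.88, SE 0.18, adjusted p = 0.0105). The taurine transporter Slc6a6 was lower than in beta (-0.52, SE 0.11, adjusted p = 0.0115) and delta cells (-1.19, SE 0.11, adjusted p = 1.93e-04). Slc7a14, a relative of Slc7a2, was also lower than in beta (-0.40, adjusted p = 0.0260) and delta cells (-0.59, adjusted p = 0.00525). Against beta cells both directions rest on the centring: per 10000 UMIs, Slc6a6 stood at 0.803 and 0.813 in alpha and 0.728 and 0.738 in beta cells. Slc7a14 likewise stood at 0.678 and 0.923 in alpha and 0.585 and 0.739 in beta cells. In delta cells both were above the alpha level on that scale too, Slc6a6 at 2.66 and 2.19 and Slc7a14 at 1.38 and 1.72.

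Of 33 genes of amino acid sensing, most of them of the mTORC1 pathway and the rest surface receptors and the kinase gene Eif2ak4, 21 were tested among endocrine classes. Against beta cells 2 were higher and 3 lower, a share near the 22.4% of all genes called. Against delta cells 2 were higher, below the 17.7% of all genes called. Castor2, a paralogue of the arginine sensor Castor1, stood at 2.63 and 2.96 per 10000 in alpha, 0.386 and 0.409 in beta and 1.65 and 1.39 in delta cells. It was higher in alpha than in beta by 2.02 (SE 0.12, limma adjusted p = 1.16e-05) and than in delta cells by 1.19 (SE 0.12, adjusted p = 2.30e-04). It was also called higher than in PP cells of the joint table, which held 1.06 per 10000 (adjusted p = 0.0118). Library 1 lists it under the older name Gatsl2. Rragb, a Rag GTPase, stood at 0.228 and 0.3 per 10000 in alpha, 0.0317 and 0.033 in beta and 0.0673 and 0.187 in delta cells. It was higher in alpha than in beta by 1.27 (SE 0.27, adjusted p = 0.0108) and than in delta cells by 1.23 (SE 0.27, adjusted p = 0.0152). Both beta levels of Rragb lie under the pseudocount, and the delta level of library 1, from 25 cells, is close to it. The sizes of these differences therefore depend on the pseudocount.

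Over 13 columns of 7 classes, the genes most like Slc7a2 by Pearson r were Slc7a8 (0.97), Ang (0.95) and Atp5e (0.90). Those most like Slc38a5 were Vwde (0.97), Wnk3 (0.97) and Oxtr (0.95), and those most like Slc38a4 were 9330182L06Rik (0.98), Lrrn1 (0.98) and Vdr (0.97). These columns share mice and depth, and r is given as a description.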

How the data were processed

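The authors deposited raw UMI counts for replicate 1 and, for replicates 2 and 3 together, values that are the natural log of 1 plus UMIs per 10000. Per the submitters' processing notes, Cell Ranger 3.2.0 and 5.0.0, cutadapt 2.5, FastQC 0.11.8, Seurat 4.0.0 and mm10 were used. Whole UMIs were recovered for 100% of 35558086 nonzero values (tolerance 0.001). Of 16050 joint columns, 3008 repeat others exactly and were dropped; 0 columns went unused for want of a sample. Library 1 held 27474046 UMIs and the joint one 196833349 in all. Cells needed 500 genes, 1000 UMIs and at most 20% mitochondrial UMIs. Endocrine cells with 3 or more markers of a non-endocrine list (6 for acinar) were set aside, and Scrublet (scanpy 1.11.5) removal was an alternative.

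UMIs were summed per class and table (at least 20 cells) and tested with limma 3.58.1 (R 4.3.3) on log2(UMIs per 10000 + 0.05), with columns centred, the library as a block and genes at 0.1 per 10000 in 2 columns. Classes of 1 table come from the same mice, which is why the library pairs them. The threshold was a Benjamini-Hochberg adjusted p of 0.05. The fit was tested on simulated data. Alternatives used edgeR 4.0.16, DESeq2 1.42.0, other pseudocounts, filters, gates and totals. The residual degrees of freedom were 2 (3 with non-endocrine cells). Moderated variances, which borrow from all genes tested, raised the median total to 8.33 (6.95 with non-endocrine cells). The p-values thus rest on how class differences vary between these libraries and, in large part, on a spread shared over genes. The members and lists were chosen with earlier results of these data known. List genes were named where they passed in 1 direction against both beta and delta cells, and like genes as the 3 with the highest r. Older symbols were matched through RefSeq synonyms, unless the older symbol is now another gene's. Some alpha markers of the list, their summed level and 1 of the promoter motifs searched are not reported here.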

Additional observations from a re-analysis of the deposited data

How the results depend on the processing

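Slc7a2, Slc38a5 and Slc7a8 stayed higher in alpha cells and called against each class in all 20 or 21 tested alternatives, with lowest values against beta cells of 1.54, 2.27 and 0.78. The direction turned for Slc38a4 against beta (-0.02 with the total without hormone genes, -0.18 with that total and no centring, -0.03 with DESeq2), Slc7a5 against delta (-0.09 without centring) and PP (-0.00 with each cell counted once), and Slc3a2 against non-endocrine cells (-0.07 without centring); none of these was called. Counts of genes called (1859, 1468, 211 and 5141 against beta, delta, PP and non-endocrine cells) moved more. Without centring they were 5343, 2561 and 564 for the endocrine comparisons. Without a filter on low genes they were 5530, 102 and 7728 against beta, PP and non-endocrine cells, where more genes were tested. Against beta and PP cells edgeR called 3995 and 874 with TMM and 3988 and 859 with DESeq2 size factors, and DESeq2 called 951 against delta cells. Without the replicate block, counts were 1228, 915 and 95 (endocrine) and 4815 (non-endocrine). With at most 10% mitochondrial UMIs they were 2905 (beta) and 583 (PP), and with halved gates 3305, 2329 and 1203; in both settings delta cells of library 1 fell under 20 and left the fit. Against PP cells, gates of 400 gave 519, block 3 alone 116, each cell counted once 118 and the 17 PP cells of library 1 462. With the total without hormone genes and no centring, higher and lower calls were 773 and 1651 (beta), 464 and 1365 (delta) and 85 and 122 (PP), and with DESeq2 size factors 2219 and 3207 (non-endocrine). Except where stated, the cause was not tested. Library 1 alone and the joint table alone gave values with no test: for Slc7a2 against beta cells 1.86 and 1.84, and for Slc38a5 3.49 and 3.72. The alternatives with each cell counted once, without cells named by acinar markers, with the PP cells of library 1, and with the changed total and no centring were chosen after seeing the data. Slc38a3, Slc1a4 and Slc1a5 rest on 0 to 13 UMIs of alpha cells in each table that lists them.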

Other observations

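Cells that passed the glucagon gate together with another hormone gate belong to no comparison above. Cells with glucagon and pancreatic polypeptide (29 in library 1, 265 in the joint table) held Slc7a2 at 1.57 (1.3 to 1.89) and 2.28 (2.11 to 2.46) per 10000 UMIs, between the levels of alpha and PP cells. Slc38a5 stood at 0.39 and 0.456 in them and Slc7a8 at 0.641 and 0.929. In 169 cells of the joint table with insulin and glucagon, Slc7a2 was at 1.58 and Slc38a5 at 0.329, with a median depth of 26250 UMIs. Whether these cells are single cells was not tested.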
